A study of Homo sapiens with 3 samples.

Results

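The genes described here are 10 members of the YAP pathway. They are the coactivator genes YAP1 and WWTR1, the transcription factor genes TEAD1 and TEAD4, the regulators LATS2, AMOTL2 and AJUBA, and the target genes CCN1, CCN2 and ANKRD1. All 10 were found by symbol among 60554 genes of a count table, with CCN1 and CCN2 as the current names of CYR61 and CTGF, and all 10 passed the filter on low counts that 17801 genes passed. They were chosen with measured values of these libraries known, so their values are given as a description, with no test.

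RNA was sequenced from 3 stable derivatives of KYSE30, an established cell line of human squamous carcinoma of the esophagus, with 1 library each. The lines labelled shRNA 1 and shRNA 2 carried different shRNAs against SNORD12B, a small nucleolar RNA of the box C/D class, which guides methylation of other RNAs. The control line is called a vector by its genotype label, and a scrambled shRNA by the protocol. All lines were made with pLKO.1-blast virus, infected for 24 hours, selected in 5 ug/mL blasticidin for 2 weeks and grown in 10 percent serum, and the sources used here do not say whether a line was a pool or a clone.

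YAP and its paralog TAZ, the product of WWTR1, are coactivators that bind DNA through the TEAD factors. When the Hippo kinase cascade is active, LATS kinases phosphorylate both proteins and keep them out of the nucleus. When it is inactive, as in spread cells on a stiff matrix, they enter the nucleus and raise genes such as CCN1, CCN2 and ANKRD1, together with their own inhibitors LATS2 and AMOTL2. In squamous carcinoma the pathway is known for promoting growth. Only RNA was measured here, not the phosphorylation or place of the YAP protein.

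Total counts were 15146805 in the library labelled shRNA 1, 17336936 in the library labelled shRNA 2, and the control had 15473922. SNORD12B itself had 15 and 1 counts in the libraries labelled shRNA 1 and shRNA 2, against 7 in the control. The count in the library labelled shRNA 1 was thus above the control, against that label, with a ratio of 2.19 whose exact interval, 0.84 to 6.35, includes 1. The ratio was 0.128 (0.00283 to 0.992) with the label shRNA 2, from a single count, and the library labelled shRNA 1 exceeded that labelled shRNA 2 by 17.2 times (2.64 to 723). SNORD12B has only 91 exonic bases and few counts here, so its knockdown cannot be checked from these counts. Every direction given for the library labelled shRNA 1 rests on its label. ZFAS1, the host gene of SNORD12B, stood at 14.3 and 9.52 CPM, counts scaled to a common library total, in the libraries labelled shRNA 1 and shRNA 2 and at 12.02 CPM in the control. Of 8 squamous and epithelial markers, TP63, CDH1, EPCAM, SOX2 and the keratins KRT14, KRT6A and KRT17 were counted in all libraries, while KRT5 had 3, 2 and 1 counts in the libraries labelled shRNA 1 and shRNA 2 and the control. The summed level of these markers was 870.5 and 1160 CPM in libraries labelled shRNA 1 and shRNA 2 and 1385 CPM in the control. CDH1 was the largest part of each sum, at 451 and 680 CPM against 628 CPM, so above the control with the label shRNA 2. KRT14, KRT6A, KRT17 and SOX2 were at least 1.5-fold lower in both shRNA libraries, as were 3.47 percent of all genes tested. Among genes with a mean of at least 5 CPM that share was 1.21 percent. The part of these marker differences in the results below was not tested. The fibroblast genes COL1A2, DCN and LUM had a count of 0 in every library, which allows up to 0.198, 0.173 and 0.194 CPM in libraries labelled shRNA 1 and shRNA 2 and the control, and the whole fibroblast list of 6 genes summed to 9.51 and 13.8 CPM against 15.9 CPM, nearly all of it COL1A1. The 3 endothelial markers summed to 0.924 and 5.83 CPM against 3.68 CPM, and the 3 leukocyte markers to 1.12 and 1.90 CPM against 1.94 CPM.

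The targets CCN2, CCN1 and ANKRD1 differed most among the libraries, whereas YAP1, WWTR1 and TEAD1 stayed within a range of 1.15 to 1.35 times between their highest and lowest library. CCN2 was lower than the control with both labels, at 68.9 and 21.6 CPM against 148 CPM. CCN1 was lower with the label shRNA 2, at 221 CPM against 493 CPM, and slightly higher with the label shRNA 1, at 558 CPM. ANKRD1 had the order of CCN2 at a much lower level, but its difference from the control with the label shRNA 1 was within counting error. In bulk RNA of a cell line, a lower level per cell and fewer cells with the RNA cannot be told apart.

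**Figure D1:**
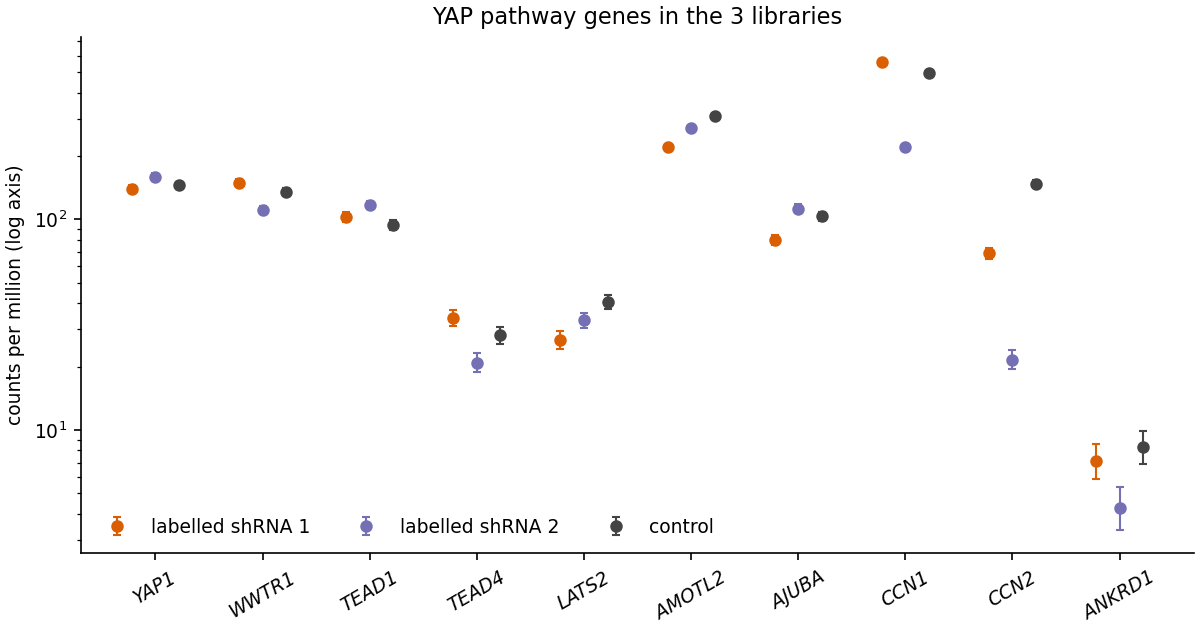
Level of each of the 10 genes in CPM, on a log axis, in the libraries labelled shRNA 1 and shRNA 2 and in the control; points are single libraries and bars are exact Poisson intervals of the count at 95 percent. The 3 points of CCN2 lie far apart at 68.9, 21.6 and 148 CPM, whereas those of YAP1 lie between 139 and 159.5 CPM.

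CCN2 was the 1 member at least 1.5-fold lower than the control in both shRNA libraries, and 0 members were at least 1.5-fold higher in both. Over all genes tested, 3.47 percent were that much lower in both and 3.26 percent that much higher, and among genes with a mean of at least 5 CPM, a level that all 10 members reach, the shares were 1.21 and 1.02 percent. CCN2 was also at least 2-fold lower in both, as 1.19 percent of all genes were, while 0.977 percent were 2-fold higher in both. These counts describe CCN2 and not the group. In the library labelled shRNA 1 alone, CCN2 and LATS2 were at least 1.5-fold lower and 0 members higher, where 12.7 percent of all genes were lower and 10.8 percent higher. In the library labelled shRNA 2 alone, CCN1, CCN2 and ANKRD1 were at least 1.5-fold lower and 0 members higher, where 9.92 percent of all genes were lower and 9.38 percent higher. At a mean of at least 5 CPM, those shares were 7.44 percent lower and 6.29 percent higher with the label shRNA 1, and 5.11 percent lower and 4.56 percent higher with the label shRNA 2. LATS2 lay just past that threshold with a log2 ratio of -0.61, and AMOTL2, at -0.50, lay just short of it, both in the library labelled shRNA 1. Both sets of ratios share the control library. By any amount, 4 members lay below the control in both libraries, 1 lay above it in both and 5 lay on opposite sides, where 27 percent of all genes lay below in both and 28.2 percent above in both. The 4 below were LATS2, AMOTL2, CCN2 and ANKRD1, though ANKRD1 with the label shRNA 1 was within counting error of the control. The medians of the 10 log2 ratios were -0.15 with the label shRNA 1 and -0.31 with the label shRNA 2, beside 0.01 and 0.00 over all genes tested.

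**Figure D2:**
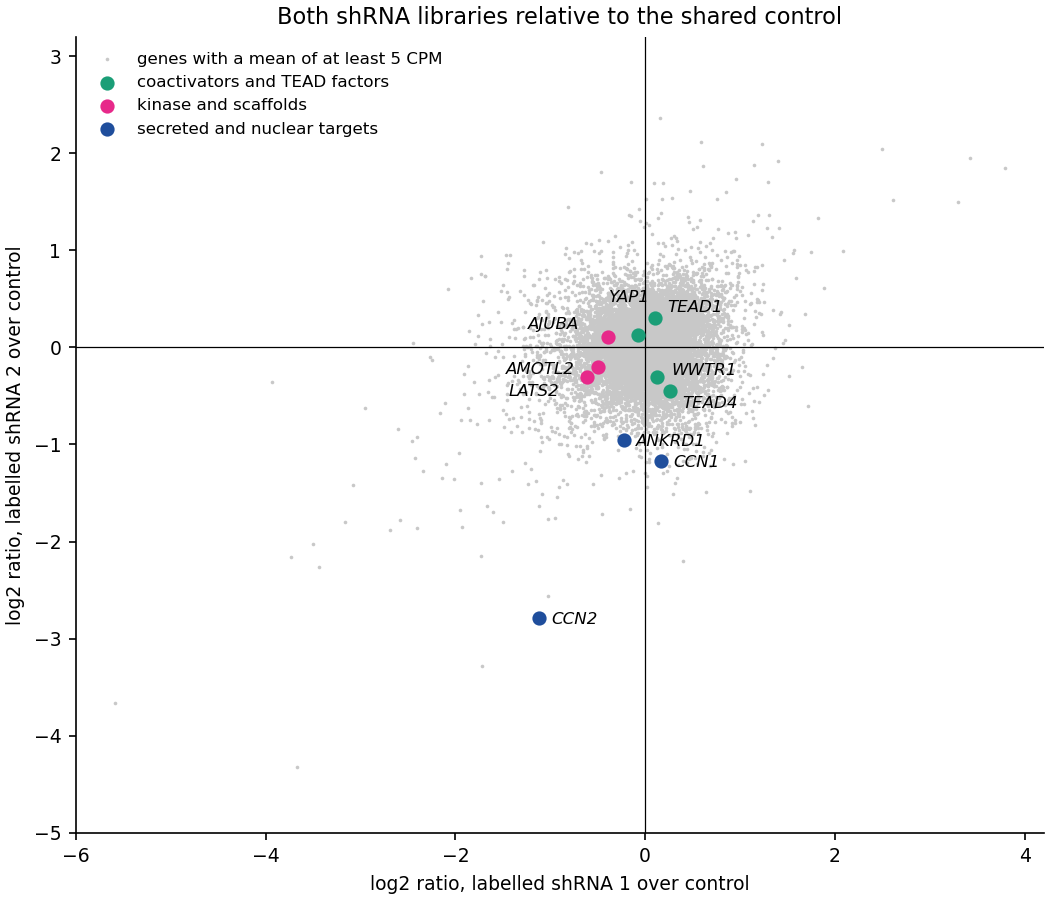
Log2 ratio to the control with the label shRNA 1 (x axis) and with the label shRNA 2 (y axis), 1 library each, for genes with a mean of at least 5 CPM in grey and the 10 members in colour by role. CCN2 lies at -1.12 and -2.79, apart from the other members, and CCN1 and ANKRD1 lie low on the y axis only, at -1.17 and -0.95.

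CCN2 (ENSG00000118523.5, chromosome 6, 131948176 to 131951373, minus strand, hg38) encodes connective tissue growth factor, a secreted matricellular protein and the target most often read as a measure of YAP activity. It had 1044 and 374 counts in the libraries labelled shRNA 1 and shRNA 2, against 2288 in the control. The CPM ratio to the control was 0.466 (exact conditional interval 0.433 to 0.502) with the label shRNA 1 and 0.146 (0.13 to 0.163) with the label shRNA 2. Both shRNA libraries thus lay below the control, with the library labelled shRNA 2 the lower of the pair. These intervals cover counting error only and say nothing of how far cultures vary. Of all genes tested, 4.6 percent had a lower log2 ratio than CCN2 with the label shRNA 1 and 0.112 percent with the label shRNA 2. An unnamed gene on the opposite strand, ENSG00000227220.1, covers 8.34 percent of the exonic bases of CCN2, and its counts were 115 and 44 against 238 in the control. These go in the same order as the CCN2 counts, and reads of this pair may not have been separated by strand.

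CCN1 (ENSG00000142871.15, chromosome 1, 85580761 to 85583962, plus strand) encodes a secreted protein of the same family, also called CYR61. Among the 10 members it had the highest CPM in the control and in the library labelled shRNA 1. CCN1 had 8451 and 3835 counts in the libraries labelled shRNA 1 and shRNA 2, against 7632 in the control. Its CPM ratio was 1.13 (1.1 to 1.17) with the label shRNA 1 and 0.448 (0.431 to 0.466) with the label shRNA 2, so the libraries lay on opposite sides of the control. The library labelled shRNA 1 exceeded the library labelled shRNA 2 by 2.52 times (2.43 to 2.62).

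ANKRD1 (ENSG00000148677.6, chromosome 10, 90912096 to 90921276, minus strand) encodes an ankyrin repeat protein of the nucleus and the muscle sarcomere. It was the least abundant member, with 108 and 74 counts in the libraries labelled shRNA 1 and shRNA 2 and 128 in the control, or 7.13 and 4.27 CPM against 8.27 CPM. Its ratio was 0.862 (0.661 to 1.12) with the label shRNA 1, where the interval includes 1 and no difference was detectable at this depth, and 0.516 (0.382 to 0.692) with the label shRNA 2. The order of the measured values was the same as for CCN2, but the place of the library labelled shRNA 1 below the control is within counting error.

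The balance between the CCN genes differed too. Per length of exonic sequence, in RPKM, which is CPM per kilobase, CCN1 exceeded CCN2 by 7.71 times in the library labelled shRNA 1, by 9.77 times in the library labelled shRNA 2 and by 3.18 times in the control. CCN2 made up 11.5 and 9.29 percent of the summed RPKM of the pair in the shRNA libraries, against 23.9 percent in the control. The summed RPKM of the pair was 257 with the label shRNA 1, 99.3 with the label shRNA 2 and 264 in the control.

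Sequence around the starts of the members was searched for GGAATG, the core of the motif that TEAD factors bind, on both strands. RefSeq promoter windows on GRCh38.p14, from 250 bases before to 50 bases after a gene's start, were at hand for 7 members and not for TEAD1, TEAD4 or CCN1. The CCN2 window holds 3 matches, all on the gene's own strand. Of 35116 windows, 0.128 percent hold 3 or more, while 14 percent hold at least 1 and 1.37 percent at least 2. CCN2 was chosen as a known target of this pathway, so these shares are no test of it. A link between matches and RNA levels was not tested. The bases upstream of CCN2, chr6:131951374-131951622, minus strand, are shown with the matches in capitals, because CCN2 is the member that was lowest relative to the control:
CCN2: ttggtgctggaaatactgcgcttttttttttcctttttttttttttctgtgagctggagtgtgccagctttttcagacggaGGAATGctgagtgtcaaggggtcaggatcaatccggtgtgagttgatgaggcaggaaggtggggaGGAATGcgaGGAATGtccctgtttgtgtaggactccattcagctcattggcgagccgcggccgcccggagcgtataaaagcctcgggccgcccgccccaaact

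Counted from the start of the gene, the first bases of these matches lie at -169, -104 and -95, and the last 2 are separated by 3 bases. ANKRD1 has 2 matches, at -220 and -128. YAP1, LATS2, AMOTL2 and AJUBA have 1 match each in 1 window. The windows of AMOTL2 and AJUBA that hold it belong to the second of the starts listed for each gene. Neither of the 2 WWTR1 windows holds these letters. A match is a string of letters and not a shown binding site. The matches outside CCN2 follow, each with 10 bases on both sides, on the strand of its gene. GGAATG or its reverse complement CATTCC is in capitals, to show where each match lies:
ANKRD1 at -220, chr10:90921292-90921317: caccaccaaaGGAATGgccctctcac
ANKRD1 at -128, chr10:90921200-90921225: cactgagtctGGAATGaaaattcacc
YAP1 at -162, chr11:102110275-102110300: ggagtgtgcaGGAATGtagcaacttg
LATS2 at 10, chr13:21061562-21061587: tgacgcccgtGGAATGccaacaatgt
AMOTL2 at -69, chr3:134374501-134374526: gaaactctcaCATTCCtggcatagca
AJUBA at -59, chr14:22976886-22976911: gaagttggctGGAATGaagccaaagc

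The coactivators differed less among the libraries than the targets did. YAP1 (ENSG00000137693.13, chromosome 11, 102110461 to 102233423, plus strand) stood at 139 and 159.5 CPM in libraries labelled shRNA 1 and shRNA 2 and at 145 CPM in the control, so the control lay between them. Its ratio was 0.961 (0.905 to 1.02) with the label shRNA 1 and 1.1 (1.04 to 1.16) with the label shRNA 2. WWTR1 (ENSG00000018408.14, chromosome 3, 149517235 to 149736714, minus strand), which encodes TAZ, stood at 149.5 and 110.5 CPM against 135 CPM in the control. Here too the control lay between the shRNA libraries, but with the label shRNA 2 as the lowest. Its ratio to the control was 1.1 (1.04 to 1.17) with the label shRNA 1 and 0.816 (0.766 to 0.868) with the label shRNA 2, and the library labelled shRNA 1 exceeded that labelled shRNA 2 by 1.35 times (1.27 to 1.44). Per length, YAP1 made up 55.4 and 65.9 percent of the summed RPKM of YAP1 and WWTR1 in the libraries labelled shRNA 1 and shRNA 2 and 58.9 percent in the control. That sum was nearly level, at 39.9 and 38.5 RPKM against 39.1 RPKM. Genes on the opposite strand cover 9.97 percent of the exonic bases of YAP1 and 9.45 percent of those of WWTR1, so their counts may hold some reads of the partner genes.

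TEAD1 (ENSG00000187079.14, chromosome 11, 12674591 to 12944483, plus strand) was the single member above the control with both labels. It stood at 102 and 117 CPM in libraries labelled shRNA 1 and shRNA 2 and at 94.2 CPM in the control, with ratios of 1.09 (1.01 to 1.17) and 1.24 (1.16 to 1.33). TEAD4 (ENSG00000197905.8, chromosome 12, 2959330 to 3040673, plus strand) stood at 34.2 CPM with the label shRNA 1 and 20.9 CPM with the label shRNA 2, against 28.2 CPM in the control. Its ratios, 1.21 (1.06 to 1.38) and 0.739 (0.641 to 0.852), lay on opposite sides of 1. Per length, TEAD3, which is not among the 10 members, was the most abundant factor of the family in the control, with 42 percent of the summed RPKM. TEAD4 made up 37 percent with the label shRNA 1 and 21.8 percent with the label shRNA 2, against 30 percent in the control. TEAD1 made up 24.2 and 26.8 percent against 21.9 percent. The family as a whole summed to 40.7 and 42.1 RPKM in the shRNA libraries and 41.4 RPKM in the control.

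**Figure D3:**
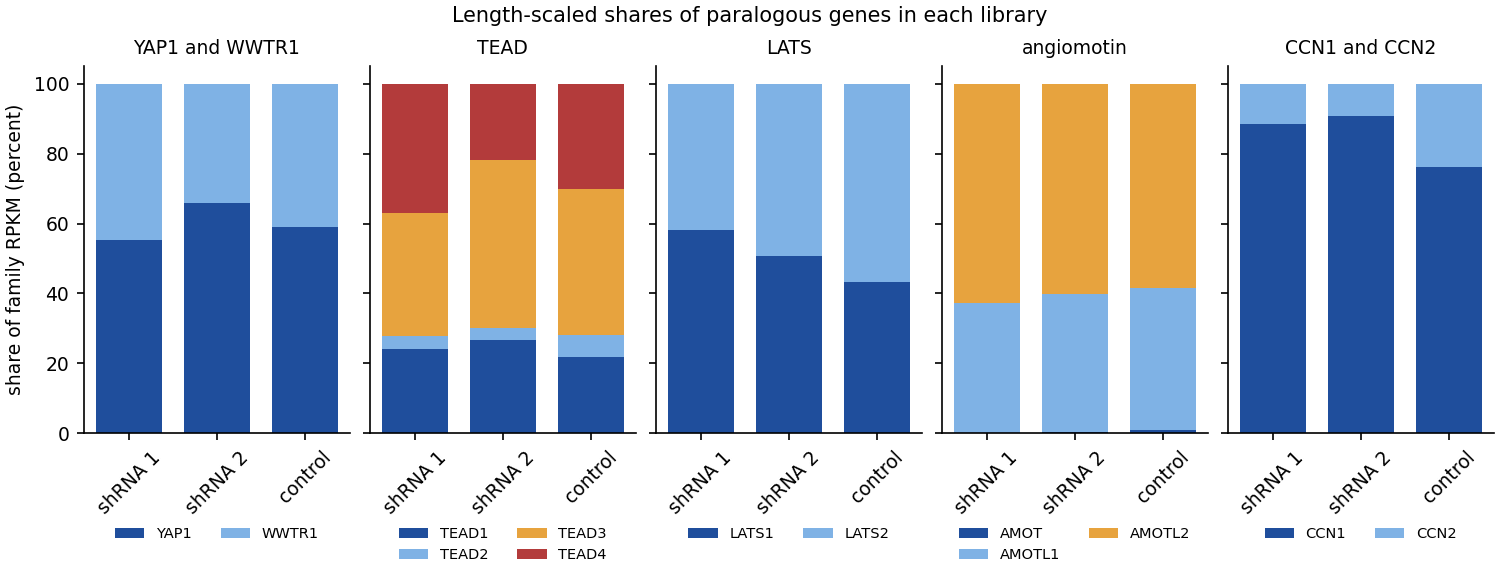
Share of each gene in the summed RPKM of its family, in percent, for the libraries labelled shRNA 1 and shRNA 2 and the control; each bar is 1 library and adds to the whole family. CCN2 takes 11.5 and 9.29 percent against 23.9 percent in the control, and LATS1 takes 58.3 and 50.8 percent against 43.4 percent.

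The kinase and the scaffolds among the members had lower levels with the label shRNA 1 than with the label shRNA 2. LATS2 (ENSG00000150457.8, chromosome 13, 20973032 to 21061547, minus strand) encodes a kinase that phosphorylates YAP and TAZ. It stood at 26.9 and 33.2 CPM in libraries labelled shRNA 1 and shRNA 2 and at 40.6 CPM in the control, with ratios of 0.662 (0.583 to 0.751) and 0.819 (0.73 to 0.918). Its paralog LATS1 stood at 58.3 and 53.1 CPM against 48.2 CPM. LATS2 was thus below the control with both labels. LATS1 was above it with the label shRNA 1, at a ratio of 1.21 (1.1 to 1.33). With the label shRNA 2, the LATS1 ratio was 1.1 and its interval, 0.998 to 1.21, includes 1. LATS2 made up 41.7 and 49.2 percent of the summed RPKM of LATS1 and LATS2 against 56.6 percent in the control.

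AMOTL2 (ENSG00000114019.14, chromosome 3, 134355874 to 134375479, minus strand) encodes a junction scaffold of the angiomotin family that binds YAP and holds it in the cytoplasm. It stood at 221 and 270.3 CPM in libraries labelled shRNA 1 and shRNA 2 and at 308 CPM in the control, below the control in both. The ratios were 0.716 (0.685 to 0.748) and 0.877 (0.842 to 0.913). AJUBA (ENSG00000129474.15, chromosome 14, 22971174 to 22982642, minus strand) encodes a LIM protein that binds LATS kinases and restrains them. It stood at 79.6 CPM with the label shRNA 1 and 113 CPM with the label shRNA 2, against 104 CPM in the control, so the shRNA libraries lay on opposite sides. LATS2, AMOTL2, AJUBA and also YAP1 were lowest with the label shRNA 1, whereas CCN1, CCN2, ANKRD1, TEAD4 and WWTR1 were lowest with the label shRNA 2.

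Between the shRNA libraries, 4 members were at least 1.5-fold higher with the label shRNA 1 than with the label shRNA 2, and 0 were that much lower. They were CCN2, CCN1, ANKRD1 and TEAD4, with ratios of 3.2 (2.84 to 3.61), 2.52 (2.43 to 2.62), 1.67 (1.23 to 2.28) and 1.64 (1.43 to 1.88). Over all genes tested, 14.8 percent were that much higher with the label shRNA 1 and 15.8 percent that much lower. These shares were not computed among genes with a mean of at least 5 CPM, a level that all 10 members reach. The shares against the control were lower at that level. With 1 library per line, these differences have no replicate check.

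Other genes of the pathway were read from lists chosen by function. Of 17 Hippo core kinases and upstream regulators, 0 were at least 1.5-fold higher or lower than the control in both shRNA libraries. Over all genes tested, 3.26 percent were that much higher in both and 3.47 percent that much lower. Both shRNA libraries stood below the control for 5 of these 17 genes and above for 7, where 27 and 28.2 percent of all genes did so. The median log2 ratios of the 17 were 0.07 with the label shRNA 1 and 0.01 with the label shRNA 2. MOB1B, a cofactor of the LATS kinases, had 57.5 and 48.3 CPM in libraries labelled shRNA 1 and shRNA 2 against 37.9 CPM in the control. TAOK1, a kinase upstream of the cascade, had 155 and 159 CPM against 128 CPM. WWC2 had 65.7 and 68.5 CPM against 58.0 CPM. On the lower side, WWC1, which encodes the scaffold KIBRA, had 112 and 131 CPM against 139 CPM, while MAP4K4 and the adaptor gene SAV1 had ratios between 0.907 and 0.981. With the label shRNA 2, the intervals of MAP4K4 (0.941 to 1.01) and SAV1 (0.907 to 1.06) include 1.

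Of 12 further TEAD factors, scaffolds and cofactors, 2 were at least 1.5-fold lower in both shRNA libraries and 0 were that much higher, beside 3.47 and 3.26 percent of all genes. By any amount, both libraries stood below the control for 7 and above for 1, where 27 and 28.2 percent of all genes did so, and the median log2 ratios were -0.44 with the label shRNA 1 and -0.10 with the label shRNA 2. TEAD2 was 1 of the 2, with 4.42 and 4.21 CPM in libraries labelled shRNA 1 and shRNA 2 against 7.56 CPM in the control. The other, AMOT, lies below the level set for naming genes and was picked after its values were seen. AMOT encodes angiomotin, the founding member of the family of AMOTL2, and had 9 and 35 counts in the libraries labelled shRNA 1 and shRNA 2 against 93 in the control. Its ratios were 0.0989 (0.0438 to 0.196) and 0.336 (0.221 to 0.5). With the label shRNA 1 alone, 4 of the 12 were at least 1.5-fold lower, AMOTL1 and BTRC beside TEAD2 and AMOT, where 12.7 percent of all genes were. BTRC was named after its values were seen. AMOTL1 had 219 and 296 CPM against 362 CPM. All 3 angiomotin genes thus had less RNA with both labels than in the control, and their summed RPKM was 58.7 and 74.9 against 88.2 in the control. CSNK1E, a casein kinase that takes part in the degradation of YAP, had 89.0 and 86.7 CPM against 123 CPM.

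Of 17 other published targets, 0 were at least 1.5-fold lower or higher in both shRNA libraries, while 3 stood below the control with both labels and 7 stood above. Over all genes tested, 27 percent stood below with both labels and 28.2 percent above, and 3.47 percent were at least 1.5-fold lower in both and 3.26 percent higher. Their median log2 ratios were 0.12 with the label shRNA 1 and 0.035 with the label shRNA 2. In single libraries, 2 were at least 1.5-fold higher and 0 lower with the label shRNA 1 (F3 and TGFB2), and 3 were higher and 1 lower with the label shRNA 2 (NT5E, CCDC80 and RBMS3 against FJX1), named after their values were seen. Among all genes, 10.8 percent were that much higher and 12.7 percent lower with the label shRNA 1. With the label shRNA 2, 9.38 percent were higher and 9.92 percent lower. At a mean of at least 5 CPM, which RBMS3 does not reach, the shares were 6.29 percent higher and 7.44 percent lower with the label shRNA 1. They were 4.56 percent higher and 5.11 percent lower with the label shRNA 2. Whether the counts of these 17 genes differ from such shares was not tested. F3, the tissue factor gene that starts blood clotting, had 698 CPM with the label shRNA 1 and 311 CPM with the label shRNA 2 against 365 CPM in the control, the same order as CCN1. FJX1 had 18.2 and 7.84 CPM against 13.8 CPM, also in that order. NT5E, an ectoenzyme that makes adenosine, was above the control in both, with 404 and 459 CPM against 281 CPM. AXL, a receptor tyrosine kinase, had 286 and 271 CPM against 225 CPM, and the growth factor gene TGFB2 had 14.3 and 10.0 CPM against 8.98 CPM. The TGFB2 ratio with the label shRNA 2, 1.12 (0.889 to 1.41), has an interval that includes 1. PTPN14, IGFBP3 and NUAK2 were the 3 below the control in both. PTPN14, a phosphatase that binds YAP, had 91.6 and 103 CPM against 118 CPM. NUAK2, a kinase, had 39.6 and 28.8 CPM against 42.3 CPM, the order of CCN2. Its ratio with the label shRNA 1, 0.937 (0.838 to 1.05), has an interval that includes 1. IGFBP3, a secreted binding protein of insulin-like growth factors, had 114 and 151 CPM against 159.5 CPM.

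**Figure D4:**
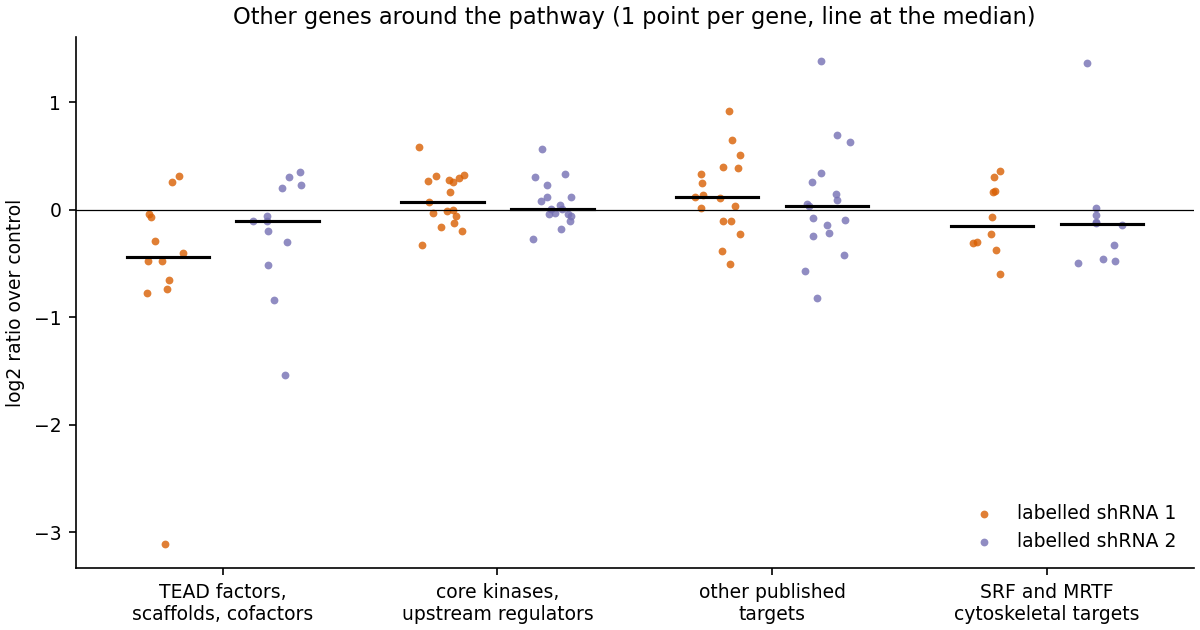
Log2 ratio to the control of each gene that passed the filter in 4 lists, for the libraries labelled shRNA 1 and shRNA 2; each point is a gene and the line is the list's median. The medians of the other published targets are 0.12 and 0.035, and the lowest point of the TEAD factors, scaffolds and cofactors is AMOT, with 9 counts with the label shRNA 1 against 93 in the control.

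The test of the pair of shRNA libraries against the control, edgeR's quasi-likelihood test over 17801 genes with Benjamini-Hochberg adjustment, called 0 percent of genes at an adjusted p under 0.05, so 0 genes of these lists passed. At an unadjusted p under 0.05 it had 73 genes higher and 164 lower, and DESeq2 called 0 higher and 14 lower over all genes. The spread in that test comes from the pair of shRNA lines alone, and 1 control stands without a replicate, so a count of 0 does not show that no gene differed.

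Genes with a pattern close to that of CCN2 were sought among 10317 named genes with a mean of at least 10 CPM, by the Euclidean distance between pairs of log2 ratios, over 3 libraries. The nearest were EGR1 at a distance of 0.78 and FOS at 0.89, both immediate early transcription factor genes, then ANGPTL4, KRT6A and RGS2 at 1.0 to 1.1. EGR1 stood at 34.7 and 11.7 CPM in libraries labelled shRNA 1 and shRNA 2 against 113 CPM in the control, and FOS at 8.52 and 6.35 CPM against 28.2 CPM. Each of these 5 is thus lower than the control in both shRNA libraries, which their nearness to CCN2 made certain. They lie far from CCN2 compared with the distances around YAP1. YAP1 lies in the middle of all genes and CCN2 at the edge, where genes are sparse, so these distances do not compare likeness of pattern. For YAP1 the nearest 5, LAMB1, SH3BGRL2, ZSCAN30, PAG1 and ATF7IP, lay within 0.0084.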

How the data were processed

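Raw counts per gene came from featureCounts 1.6.4 run by the authors on an hg38 annotation with strand option 1, per the file headers. The submitters' processing notes list other software, TopHat2 and HTSeq, and another build, hg19. Of 60554 gene identifiers, 52179 are in GENCODE 29 with the same version, and all 52179 have the same start and end there. Symbols came from a name table that matched 56558. Overlap with other genes was larger for some named genes outside the members. Genes on the opposite strand cover 31.29 percent of the exonic bases of ACTA2, 25.9 of WWC2, 22.69 of TPM1, 14.92 of SAV1, 11.1 of ZFAS1 and 10.7 of TEAD2. Genes on the same strand cover 26.62 percent of TGFB2 and 20.86 percent of ZFAS1. Counts of these genes may be affected by reads from the overlaps.

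CPM was computed on the total count of each library, and RPKM as CPM per kilobase of the deposited exonic length. Log2 ratios are differences of log-CPM after TMM scaling, with 2 counts added as the prior. The pair of shRNA libraries was tested against the control in R 4.3.3 with edgeR 4.0.16 (filterByExpr, 1 residual degree of freedom), checked on simulated data, with DESeq2 1.42.0 and limma 3.58.1 as alternatives. Nothing says that the shRNA lines are replicate cultures, so p-values measure only the spread between them. Intervals are exact at 95 percent, with 3 counts as the limit that a count of 0 allows, and cover counting error only. Replicate numbers are shRNA numbers and pair no samples.

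The members and lists were chosen with earlier results of these data known. The rule for named genes takes all members, SNORD12B and ZFAS1, up to 3 genes per list and direction that average 5 CPM or more and have the largest smaller ratio of the pair, and the 5 genes nearest to CCN2 and to YAP1. Outside it, LATS1 and TEAD3 are named as paralogs of members, and AMOT, BTRC, F3, FJX1, CCDC80, RBMS3, ACTB, ACTG1 and ACTA2 were chosen after their values were seen. Alternatives covered scaling, filter, test, fold, prior count and leaving out each shRNA library.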

Additional observations from a re-analysis of the deposited data

Results flagged for a closer look

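For 4 members the shRNA libraries lay on opposite sides of the control, with counting intervals of both ratios that leave out 1. Over all genes tested, 27 percent lay below the control in both libraries and 28.2 percent above in both. The share of all genes on opposite sides with such intervals was not computed, and the intervals cover counting error only. The log2 ratio of the library labelled shRNA 1 to the library labelled shRNA 2 was 1.33 for CCN1, 0.71 for TEAD4, 0.44 for WWTR1 and -0.50 for AJUBA. With 1 library per line, none of these differences was tested.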

How the results depend on the processing

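No paired analysis was possible because the control has 1 library and shares no label number with the shRNA libraries. Genes called over all genes, 0 higher and 0 lower in the main test, were 4 higher and 37 lower with no filter, 2 and 36 with edgeR's likelihood ratio test, 0 and 14 with DESeq2, and 0 and 1 both with limma-voom and with no scaling. The unadjusted counts of the main test were 73 and 164. Leaving out an shRNA library leaves no residual degree of freedom, so no such count of calls was made. Past 1.5-fold lower, the 1 member counted in both libraries became 3 without the library labelled shRNA 1 and 2 without the library labelled shRNA 2. Over all genes, the 618 lower and 581 higher in both became 2875 and 1428 with no filter, 146 and 123 at a mean of at least 5 CPM, 212 and 174 at 2-fold, and 1765 to 2257 lower and 1670 to 1931 higher with 1 shRNA library left out. The 2 further TEAD factors, scaffolds and cofactors lower in both became 1 at a mean of at least 5 CPM, 1 at 2-fold and 4 without the library labelled shRNA 2, and the 0 lower targets of SRF became 1 with no filter. For the members and the list genes named by the rule, 0 of 290 log2 ratios with another scaling, filter or prior count changed sign. The largest shift was 0.017, and all scaling factors lay between 0.988 and 1.01, so little shift was possible. Leaving out an shRNA library changed the sign of the mean log2 ratio of CCN1, YAP1, WWTR1, TEAD4 and AJUBA. The 2 ratios of each lie on opposite sides of the control, so 1 of the omissions had to change the sign, and this adds no check. For CCN1 the mean went from -0.505 to 0.162 without the library labelled shRNA 2. These alternatives were not run for single genes named outside the rule, such as AMOT. Among the members, depth limits ANKRD1 most, and SNORD12B rests on 15, 1 and 7 counts in the libraries labelled shRNA 1 and shRNA 2 and the control.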

Other observations

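CCN1, CCN2 and ANKRD1 are also known targets of serum response factor, which acts with its coactivator MRTF on genes of the actin cytoskeleton. Of 12 such genes, 10 passed the filter on low counts, and 0 of them were at least 1.5-fold lower or higher than the control in both shRNA libraries. Over all genes tested, 3.47 percent were that much lower in both and 3.26 percent that much higher. By any amount, both libraries stood below the control for 6 of the 10 and above for 2, where 27 and 28.2 percent of all genes did so. SRF itself stood at 66.5 and 61.6 CPM in libraries labelled shRNA 1 and shRNA 2 against 85.0 CPM in the control. CNN2, an actin-binding calponin, stood at 194 and 190.5 CPM against 236.5 CPM, and the tropomyosin gene TPM1 at 50.2 and 53.4 CPM against 58.2 CPM. FLNA, a filamin that crosslinks actin, stood at 1416 and 1160 CPM against 1133 CPM. The median log2 ratios of the 10 were -0.15 with the label shRNA 1 and -0.13 with the label shRNA 2.

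Of the 3 actin genes in the list, named here after their values were seen, ACTB and ACTG1 had the order of CCN1 and ACTA2 did not. ACTB stood at 4227 CPM with the label shRNA 1 and 2345 CPM with the label shRNA 2, against 3266 CPM in the control. ACTG1 stood at 3710 and 2404 CPM against 3268 CPM. Both were higher than the control with the label shRNA 1 and lower with the label shRNA 2. ACTA2 stood at 1.39 and 2.08 CPM against 2.13 CPM. These values describe 3 libraries, with no test.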
